A study of Mus musculus with 12 samples.

Results

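The endoplasmic reticulum (ER) chaperones and the unfolded protein response were examined as a set of 37 genes in RNA sequencing of mouse colonic crypts. The members were the rows of the deposited table whose gene symbol matched a fixed list of 37 symbols, and each symbol was matched, out of 55471 rows in all. A second identifier with the symbol Ddit3 had 0 reads in every library and was left out. Crypts were released with EDTA from the colons of 8-week-old female C57BL/6J mice, and 12 libraries were made, 1 from each of 3 mice in 4 groups. CBPWTp53-floxed mice carried wild-type CBP, the acetyltransferase encoded by Crebbp, with floxed p53 alleles and no Cre. CBPAAp53-floxed mice carried the same floxed p53 alleles and a whole-body knock-in in which 2 serines of CBP were replaced by alanines, so that these sites could not be phosphorylated. In CBPWTp53ΔIEC and CBPAAp53ΔIEC mice, Villin-Cre deleted p53 in the intestinal epithelium on either CBP background, and other cell types kept p53. The comparisons asked what loss of CBP phosphorylation and loss of epithelial p53 did to the crypt transcriptome, alone and together.

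The libraries held 11177430 to 18029125 counts assigned to genes. Trp53 was at 23.3 to 33.5 TPM (the level per transcript length, scaled to a fixed total in each library) in the 6 p53-floxed libraries and at 3.26 to 6.13 TPM in the 6 p53-deleted libraries, with no overlap. The sum of 11 epithelial markers was 19437 TPM or more in each library, whereas 10 leukocyte markers summed to 5.44 to 11.3 TPM, 10 stromal markers to 4.18 to 8.36 TPM and 5 endothelial markers to 1.05 to 1.85 TPM, with Cdh5 at 0 in each library. Plasma cells are rich in ER proteins, and of their 10 listed markers Mzb1, Tnfrsf17, Pou2af1, Irf4, Cd79a and Jchain were at or below 0.946 TPM in all 12 libraries. The immunoglobulin genes Igha and Igkc reached 4.46 and 17.6 TPM and Prdm1 6.44 TPM, and Sdc1, which epithelium also expresses, was at 144 to 204 TPM. The 4 markers that passed the filter had a median log2 fold change of 0.81 on p53 deletion in CBPWT, with Igha higher at an unadjusted p of 0.00558 (log2 fold change 1.37, adjusted p = 0.0834), and the part of plasma cell RNA in the members' values was not tested. Some libraries held more RNA of small-intestinal marker genes, called small-intestinal RNA below. Whether it came from small-intestinal tissue was not tested. A sum of 10 small-intestinal markers was 6202 TPM in CBPWTp53ΔIEC replicate 1, 3434 TPM in CBPAAp53ΔIEC replicate 3 and 3073 TPM in CBPAAp53-floxed replicate 2, against 688 to 1638 TPM in the other 9. The Paneth cell alpha-defensins summed to 18916, 4352 and 941 TPM in those 3 libraries and to 2132 TPM in CBPAAp53ΔIEC replicate 1, and to at most 32.4 TPM in the remaining 8. Calls below are therefore also given without CBPWTp53ΔIEC replicate 1 and CBPAAp53ΔIEC replicate 3, a pair left out after the data had been seen because they held the most small-intestinal RNA among the p53-deleted libraries.

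As background, secreted and membrane proteins enter the ER through the SEC61 translocon, fold with chaperones such as BiP (Hspa5), form disulfide bonds with protein disulfide isomerases, and are sent for ER-associated degradation (ERAD) when they fail to fold. Unfolded protein activates the sensors IRE1, ATF6 and PERK. IRE1 splices the Xbp1 transcript to yield an active transcription factor, ATF6 is cleaved to another, and PERK phosphorylates eIF2alpha, which lowers general translation and favours ATF4 and its targets. Goblet cells of the colon secrete large amounts of the mucin MUC2 and depend on this system, and they express an IRE1 of their own, IRE1beta (Ern2). Counts in the table were per gene, so spliced and unspliced Xbp1 transcripts, cleaved ATF6 and phosphorylated PERK were not measured.

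The promoters of the members are shown first because several carry the sequences through which this response is known to act. RefSeq promoters of build GRCm38.p6, each running from 250 bases before to 50 bases after a transcription start, were matched for 31 of the 37 members, with no entry for Hyou1, Manf, Ern2, Atf6, Derl1 and Sec61a1. The ER stress response element, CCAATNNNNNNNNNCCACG, was found on either strand in 39 of 32851 promoters (0.119%), and 9 of the 31 members carried it, namely Hspa5, Hsp90b1, Calr, Canx, Dnajc3, Creld2, Pdia6, Syvn1 and Derl3. The shorter element II, ATTGGNCCACG, was found in 12 promoters (0.0365%), among them those of Herpud1 and Dnajb11. The CHOP and ATF composite site TTGCATCA was in 294 promoters (0.895%), including Herpud1 and Chac1, and the cAMP response element TGACGTCA, to which partners of CBP bind, was in 588 (1.79%), including Ppp1r15a. The unfolded protein response element core TGACGTGG was in 222 promoters (0.676%) and in none of these members. The ER stress response element and element II share the letters CCACG. They differ in the spacing to CCAAT and in its strand, since element II holds it as the reverse complement ATTGG. Windows from 6 genes on which the results turn are printed 5′ to 3′ on the strand of the gene, with the matched elements in capitals. They lie at chr2:34772019-34772048 (+) for Hspa5, chr8:84847022-84847121 (-) for Calr, chr12:17266459-17266544 (+) for Pdia6, chr15:88819491-88819590 (+) for Creld2, chr10:86705520-86705669 (-) for Hsp90b1 and chr8:94386299-94386398 (+) for Herpud1.
Hspa5: acttcaCCAATCGGAGGCCTCCACGacggg
Calr: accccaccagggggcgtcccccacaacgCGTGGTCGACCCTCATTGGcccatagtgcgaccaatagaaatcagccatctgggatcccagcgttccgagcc
Pdia6: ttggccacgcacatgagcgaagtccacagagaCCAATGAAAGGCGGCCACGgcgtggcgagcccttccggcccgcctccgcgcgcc
Creld2: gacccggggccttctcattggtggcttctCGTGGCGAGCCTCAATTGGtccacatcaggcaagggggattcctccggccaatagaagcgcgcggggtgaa
Hsp90b1: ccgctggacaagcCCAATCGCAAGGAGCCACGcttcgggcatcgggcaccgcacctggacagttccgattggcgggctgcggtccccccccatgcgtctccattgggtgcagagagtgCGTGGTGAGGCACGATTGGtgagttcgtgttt
Herpud1: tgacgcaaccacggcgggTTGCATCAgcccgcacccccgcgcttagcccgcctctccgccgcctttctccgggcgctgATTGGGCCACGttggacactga

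In Calr, Creld2 and the second site of Hsp90b1 the element reads as its reverse complement. Hsp90b1 carried 2 copies, starting at positions -212 and -107 from the start site. Herpud1 carried element II at -52 with the composite site at -112, and was the only member with both. All 30 bases of the Hspa5 window lie in a GENCODE exon, past the GENCODE start of Hspa5 at chr2:34771970. The other windows printed hold no exon bases. A match is a description of these letters and was not tested as a binding site.

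All 37 members passed the filter on low counts and were tested among 14610 genes, so counts below are over the whole list. Their mean level over the 12 libraries ran from 849 TPM for P4hb, protein disulfide isomerase, to 0.858 TPM for Trib3 and for Derl3. Next to P4hb came Calr, the lectin chaperone calreticulin, at 510 TPM, Pdia3, its disulfide isomerase partner, at 329 TPM, and Hspa5 at 311 TPM. In the floxed libraries the 15 chaperones and isomerases summed to 2548 to 2939 TPM, so that they made up most of the 3678 to 4245 TPM of the whole set. Ern1, Atf6 and Eif2ak3 were at 8.52 to 24.4 TPM in all libraries, below every chaperone mean. Ern2 exceeded its ubiquitous relative Ern1 in every library, with a ratio of 4.52 to 7.26. Trib3, Chac1 and Derl3 rested on 2 to 39 reads per library, and their fold changes were imprecise.

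**Figure D1:**
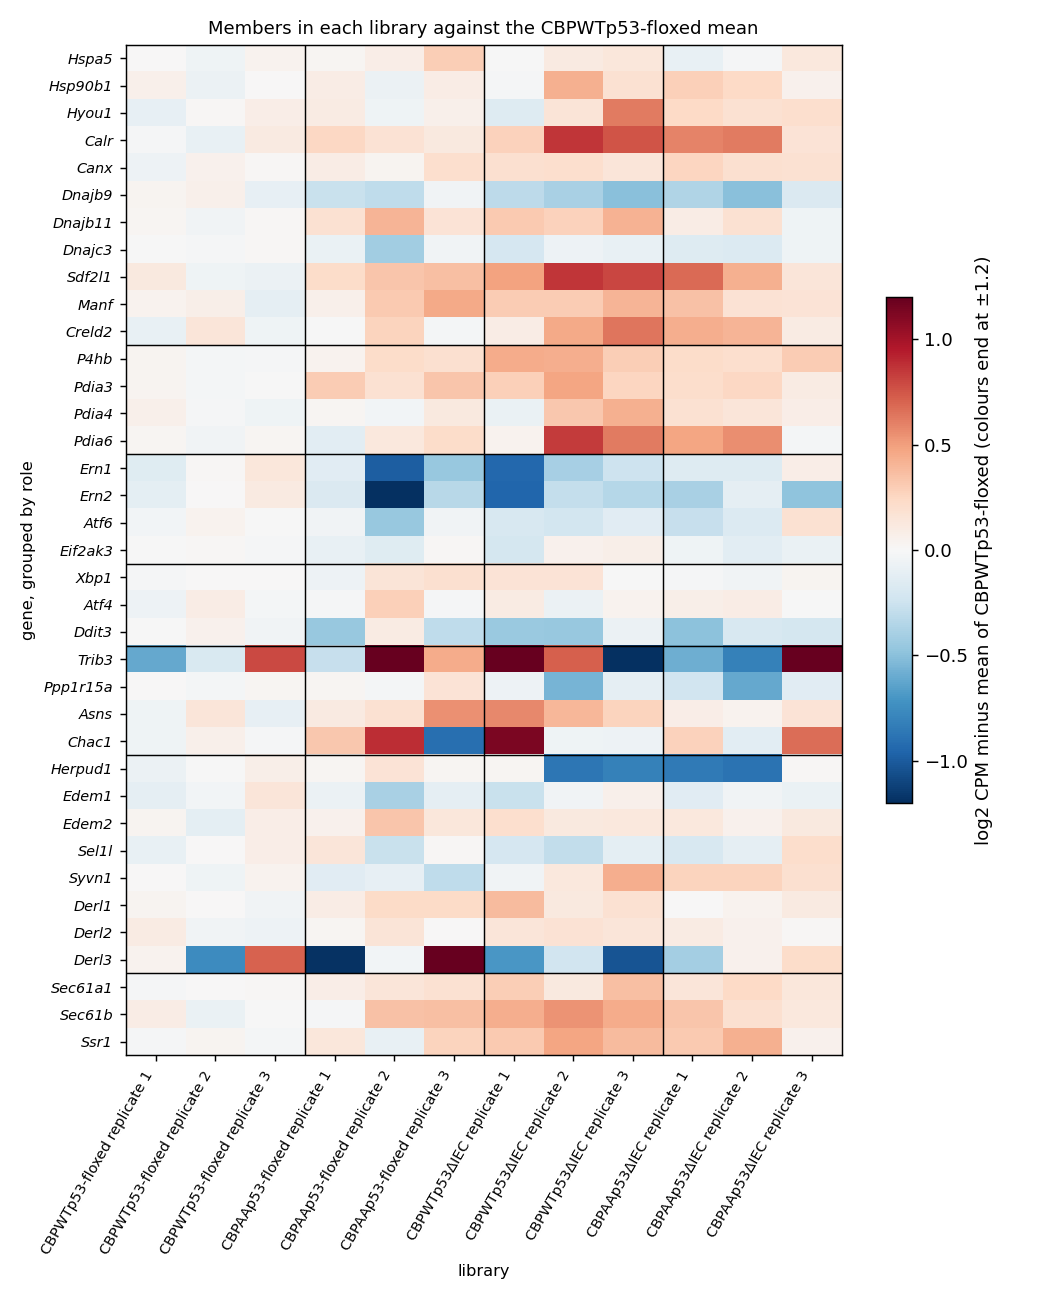
Colour gives the normalised level of each member (log2 CPM after TMM scaling, minus the mean of the 3 CBPWTp53-floxed libraries) in each of the 12 libraries, with genes grouped by role as chaperones, isomerases, sensors, transcription factors, PERK and ATF4 targets, ERAD and translocon from top to bottom. Calr, Creld2 and Pdia6 are redder and Herpud1 bluer in CBPWTp53ΔIEC replicates 2 and 3 and CBPAAp53ΔIEC replicates 1 and 2 than in CBPWTp53ΔIEC replicate 1 and CBPAAp53ΔIEC replicate 3, and Sdf2l1 is about as red in CBPAAp53ΔIEC replicate 2 (0.43) as in CBPWTp53ΔIEC replicate 1 (0.48).

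Deletion of p53 in CBPWT crypts was accompanied by higher Calr and Sdf2l1, and no other member passed the cutoff. A gene was called when its adjusted p in edgeR's quasi-likelihood test (Benjamini-Hochberg over all 14610 genes) was below 0.05 and its log2 fold change exceeded 0.5 in size. The 2 members called were 5.41% of the set, near the 3.15% of all genes called. At an adjusted p below 0.05 with no fold cutoff, Sec61b and P4hb were added, 4 of 37 members beside 3.72% of all genes. DESeq2 called the same number, 2, beside 6.17% of genes. Without a cutoff on the adjusted p, 13 members (35.1%) were higher at an unadjusted p below 0.05 beside 12.6% of all genes, and 2 (5.41%) were lower beside 8.28%. The median log2 fold change was 0.19 over the members and 0.0098 over all genes.

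Among the chaperones, Calr was at 391.8, 378 and 452 TPM in CBPWTp53-floxed replicates 1, 2 and 3 and at 401, 745 and 768 TPM in CBPWTp53ΔIEC. Replicates 2 and 3 of the deleted group were high and replicate 1 lay inside the floxed range, so that the groups overlapped in TPM. TPM does not correct for differences in RNA composition between libraries, and on the TMM-scaled log2 CPM used by the test replicate 1 was 0.28 above the CBPWTp53-floxed mean, against 0.86 and 0.76 in replicates 2 and 3, with no overlap. The log2 fold change was 0.65 (SE 0.16, adjusted p = 0.0413). Sdf2l1, which works with BiP and its cochaperone ERdj3, was at 54.6, 49.5 and 50.8 TPM and at 58.9, 94.96 and 101 TPM, with all 3 deleted libraries above the floxed ones (log2 fold change 0.73, SE 0.14, adjusted p = 0.0279). Both calls were lost when any of the 3 CBPWTp53-floxed libraries, or CBPWTp53ΔIEC replicate 2 or 3, was left out, and Calr alone was lost without CBPAAp53-floxed replicate 1 or 3 or CBPAAp53ΔIEC replicate 2. Over all 19 alternatives the adjusted p ran from 2.23e-05 to 0.166 for Calr and from 2.3e-05 to 0.154 for Sdf2l1. Over the omissions of 1 library the log2 fold change of Calr stayed between 0.54 and 0.80 and that of Sdf2l1 between 0.66 and 0.83. Calls over all genes moved in the same way, from 460 to between 1 and 7 when a library of either CBPWT group other than CBPWTp53ΔIEC replicate 1 was left out, and to 906 without that replicate, when 5 members were called. Calr lies at chr8:84841850-84846934 (-) and Sdf2l1 at chr16:17130138-17132383 (-) in GENCODE vM21, and neither shares exon bases with another annotated gene.

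BiP itself was not called in any comparison. Hspa5 was at 299.7, 292 and 326 TPM in CBPWTp53-floxed, 318, 294 and 311 TPM in CBPAAp53-floxed, 249, 334 and 376 TPM in CBPWTp53ΔIEC and 295, 309 and 327 TPM in CBPAAp53ΔIEC. In TPM the lowest and the highest of the 12 values were both in CBPWTp53ΔIEC, and the 4 groups overlapped. Its log2 fold change on p53 deletion was 0.082 in CBPWT (SE 0.11, adjusted p = 0.696) and -0.13 in CBPAA (SE 0.11, adjusted p = 0.62). Calr thus stood at 1.18 to 1.54 times the TPM of Hspa5 in the floxed libraries and at 2.04 to 2.23 times in CBPWTp53ΔIEC replicates 2 and 3 and CBPAAp53ΔIEC replicates 1 and 2, whereas CBPWTp53ΔIEC replicate 1 and CBPAAp53ΔIEC replicate 3 had ratios of 1.61 and 1.36.

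The other chaperones fell on either side. Dnajb11, the cochaperone ERdj3, was at 74.2, 72.2 and 78.4 TPM and 75.7, 91.7 and 112 TPM in the CBPWT groups without and with p53 deletion, and Manf, a small ER protein that is secreted under stress, at 34.96, 36.4 and 33.6 TPM and 35.3, 43.7 and 51.8 TPM. Creld2, an ER stress-inducible protein that assists folding, was at 26.2, 31.4 and 28.5 TPM and 24.8, 39.9 and 50.3 TPM, and Hsp90b1, the HSP90 of the ER, at 228, 212 and 233 TPM and 181, 305 and 285 TPM. In all 4 genes replicates 2 and 3 of the deleted group lay above the CBPWTp53-floxed libraries in TPM and replicate 1 did not. On the TMM-scaled log2 CPM all 3 replicates lay above them for Dnajb11 (0.31, 0.28 and 0.42 above the floxed mean) and Manf (0.31, 0.31 and 0.40), and replicate 1 still did not for Creld2 and Hsp90b1. None of the 4 reached an adjusted p below 0.05. Dnajb9, the cochaperone ERdj4 and a known target of XBP1, went the other way, at 58.3, 60.6 and 56.6 TPM against 38.4, 45.2 and 46.0 TPM with no overlap (log2 fold change -0.40, SE 0.11, adjusted p = 0.0628). Dnajc3, an inhibitor of PERK, was at 63.3, 64.3 and 68.1 TPM and 46.1, 63.3 and 68.5 TPM. Hyou1 and Canx, a BiP nucleotide exchange factor and the membrane lectin chaperone, had log2 fold changes of 0.24 and 0.18.

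The 4 disulfide isomerases were higher in point estimate. P4hb was at 754, 741 and 775 TPM in CBPWTp53-floxed and 794, 798 and 719 TPM in CBPAAp53-floxed, and at 838, 1034 and 1036 TPM in CBPWTp53ΔIEC and 904, 887 and 912 TPM in CBPAAp53ΔIEC. It was the 1 member in which all 6 p53-deleted libraries exceeded all 6 floxed ones in TPM, a separation that 0.746% of all genes showed in that direction and 0.445%, with no member, in the other. On the TMM-scaled log2 CPM this separation was lost, with CBPAAp53ΔIEC replicate 2 at 0.20 below CBPAAp53-floxed replicate 2 at 0.22. The log2 fold change was 0.39 in CBPWT (SE 0.10, adjusted p = 0.0487), below the fold cutoff, and 0.092 in CBPAA (SE 0.10, adjusted p = 0.714). Pdia6 was at 89.2, 87.0 and 94.98 TPM and 75.9, 163 and 156 TPM, with replicate 1 below every floxed library in TPM and the other replicates above them (log2 fold change 0.54, SE 0.19, adjusted p = 0.126). On the TMM-scaled log2 CPM replicate 1 was 0.044 above the CBPWTp53-floxed mean, and replicates 2 and 3 were 0.83 and 0.62 above it. Pdia3 was at 291, 285 and 301 TPM and 291, 411 and 390.5 TPM (adjusted p = 0.0716), and Pdia4 had a log2 fold change of 0.24 (adjusted p = 0.263).

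**Figure D2:**
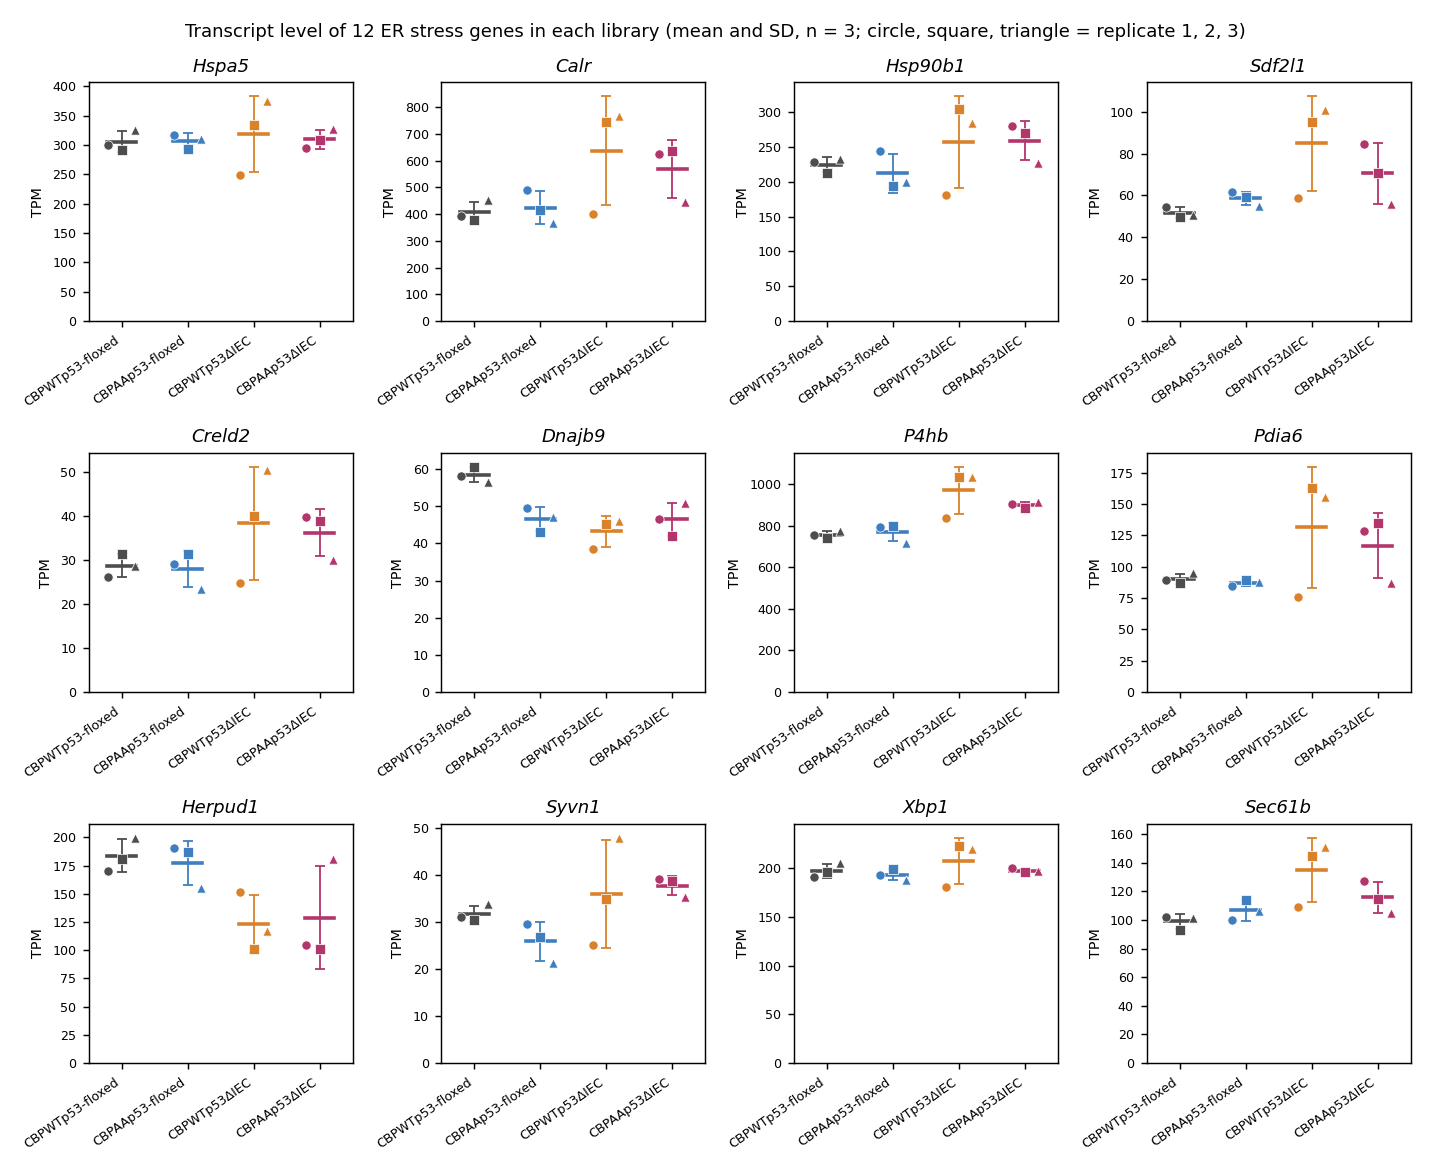
Each panel gives the level of a member in TPM, on an axis that starts at 0, with 1 point per library, the mean as a bar and the SD as a whisker for the 3 libraries of each group. Calr, Sdf2l1, Creld2 and Pdia6 have 2 high libraries and 1 near the floxed level in both p53-deleted groups, Herpud1 has 2 low libraries and 1 higher in both, and P4hb is above all floxed libraries in all 6 p53-deleted ones in TPM, though not on the TMM scale.

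None of the sensors passed the test. Ern1, the ubiquitous IRE1, was at 17.7, 20.2 and 22.8 TPM, 18.7, 9.21 and 12.2 TPM, 8.52, 15.4 and 19.0 TPM and 18.4, 18.4 and 20.8 TPM in CBPWTp53-floxed, CBPAAp53-floxed, CBPWTp53ΔIEC and CBPAAp53ΔIEC. Ern2, in the same order, was at 121, 135 and 150.4 TPM, 122, 48.3 and 88.8 TPM, 56.6, 112 and 119 TPM and 105, 128 and 94.2 TPM. Both genes were lowest in CBPAAp53-floxed replicate 2 and CBPWTp53ΔIEC replicate 1, the libraries with the highest small-intestinal sum among the floxed and among the deleted ones. The goblet marker Atoh1 was lowest, at 71.8 TPM, in CBPWTp53ΔIEC replicate 1, while 10 goblet markers summed to 17981 to 31549 TPM with overlapping groups, and the part of cell composition in the Ern1 and Ern2 values was not tested. In such bulk samples, fewer cells of a type and less RNA per cell cannot be told apart. Atf6 was at 20.9, 22.5 and 22.7 TPM, 21.8, 14.6 and 17.7 TPM, 15.7, 19.1 and 22.4 TPM and 18.5, 19.97 and 24.4 TPM, and Eif2ak3, which encodes PERK, at 16.8, 17.5 and 17.9 TPM, 16.7, 14.3 and 14.6 TPM, 12.2, 18.2 and 20.4 TPM and 17.1, 16.2 and 16.1 TPM. In TPM these 2 sensors were also lowest in those 2 libraries, which for Atf6 did not hold on the TMM scale. Their log2 fold changes on p53 deletion were -0.18 and -0.024 in CBPWT and 0.10 and -0.016 in CBPAA.

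None of the 3 transcription factors passed the test in any comparison. Xbp1 was at 191, 197 and 205 TPM, 193, 199 and 188.2 TPM, 180.5, 223 and 219.8 TPM and 200.04, 196 and 197 TPM in the 4 groups, again in the order CBPWTp53-floxed, CBPAAp53-floxed, CBPWTp53ΔIEC and CBPAAp53ΔIEC. Atf4 was at 192, 218 and 209.7 TPM, 208, 228 and 169.8 TPM, 179, 199 and 237 TPM and 222, 224 and 200.4 TPM, and the groups of both genes overlapped. Averaged over both CBP genotypes, p53 deletion gave log2 fold changes of 0.0007 for Xbp1 (SE 0.069) and -0.0086 for Atf4 (SE 0.074). Ddit3, the stress-induced factor CHOP, was at 21.3, 22.6 and 22.1 TPM, 16.3, 21.4 and 14.8 TPM, 13.1, 16.2 and 23.5 TPM and 15.9, 19.5 and 18.6 TPM (log2 fold change -0.21, SE 0.12, adjusted p = 0.333 over both genotypes). It shares exon bases with Mars and Gm4189 on the opposite strand and with the second Ddit3 identifier.

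None of the 4 targets of PERK and ATF4 was called in edgeR with all libraries. Asns, asparagine synthetase, was at 24.4, 28.6 and 25.2 TPM in CBPWTp53-floxed and 31.6, 34.6 and 35.05 TPM in CBPWTp53ΔIEC, with no overlap, and at 28.6, 26.8 and 31.6 TPM and 28.1, 27.3 and 28.4 TPM in the CBPAA groups (log2 fold change 0.41 and -0.19, adjusted p = 0.0931 and 0.529). Ppp1r15a, the phosphatase subunit GADD34 that reverses eIF2alpha phosphorylation, was at 15.1, 15.1 and 16.3 TPM and 12.2, 10.6 and 16.1 TPM in CBPWT and at 16.1, 13.8 and 14.5 TPM and 13.5, 10.3 and 13.8 TPM in CBPAA. All 3 CBPAA libraries with p53 deleted were below the CBPAAp53-floxed ones, the highest of them narrowly, and the adjusted p was 0.372 in CBPAA and 0.135 over both genotypes. Trib3, a pseudokinase, and Chac1, which degrades glutathione, ranged from 0.184 to 1.99 TPM and from 0.708 to 3.39 TPM.

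Among the ERAD genes, Herpud1 encodes an ER membrane protein of the degradation complex. It was at 170.4, 181 and 199.7 TPM in CBPWTp53-floxed, 190.3, 187 and 155 TPM in CBPAAp53-floxed, 152, 101 and 117 TPM in CBPWTp53ΔIEC and 104, 101 and 181 TPM in CBPAAp53ΔIEC. CBPWTp53ΔIEC replicates 2 and 3 and CBPAAp53ΔIEC replicates 1 and 2 were the 4 lowest of all libraries, and CBPWTp53ΔIEC replicate 1 and CBPAAp53ΔIEC replicate 3 were just under and inside the floxed range, and both were within 0.023 of the CBPWTp53-floxed mean on the TMM-scaled log2 CPM. The log2 fold change was -0.50 in CBPWT (SE 0.26, adjusted p = 0.299), -0.58 in CBPAA (SE 0.26, adjusted p = 0.39) and -0.54 over both (SE 0.18, adjusted p = 0.119). By DESeq2 it was called over both genotypes (log2 fold change -0.54, adjusted p = 0.0374). Herpud1 lies at chr8:94386438-94395377 (+) and shares no exon bases with another gene.

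Syvn1, the ubiquitin ligase HRD1, was at 31.1, 30.5 and 33.8 TPM and 29.6, 26.9 and 21.3 TPM in the floxed groups and at 25.1, 35.02 and 48.0 TPM and 39.1, 38.9 and 35.4 TPM in the deleted ones. In CBPAA all 3 deleted libraries were above the floxed ones (log2 fold change 0.42, SE 0.12, adjusted p = 0.32), and over both genotypes the log2 fold change was 0.30 (adjusted p = 0.05). It shares exon bases with Mrpl49 on the opposite strand. Its partner Sel1l was at 31.7, 34.5 and 37.8 TPM, 39.1, 26.1 and 29.0 TPM, 24.5, 28.5 and 35.7 TPM and 30.9, 32.6 and 39.2 TPM, and the mannosidase-like Edem1 at 43.3, 46.5 and 55.1 TPM, 46.6, 33.2 and 36.96 TPM, 32.6, 47.3 and 56.0 TPM and 44.6, 47.5 and 44.5 TPM, with all groups overlapping in TPM. Of the Derlins, channel proteins of ERAD, Derl1 stood at 4.57 to 5.72 times the TPM of Derl2 in every library and Derl3 was at 0.303 to 1.94 TPM. Derl1, Derl2 and Edem2 had log2 fold changes on p53 deletion of 0.23, 0.16 and 0.15 in CBPWT and -0.13, -0.0088 and -0.08 in CBPAA.

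All 3 translocon members were higher at an unadjusted p below 0.05 on p53 deletion in CBPWT. Sec61b, a subunit of the channel, was at 102, 93.1 and 102 TPM in CBPWTp53-floxed and 109.2, 145 and 151 TPM in CBPWTp53ΔIEC, with no overlap (log2 fold change 0.48, SE 0.11, adjusted p = 0.0388). In CBPAA it was at 99.8, 114 and 106 TPM and 127.4, 115 and 105 TPM, with overlap (log2 fold change -0.026, SE 0.11). The channel subunit Sec61a1 and the translocon-associated Ssr1 had log2 fold changes of 0.26 and 0.39 in CBPWT (adjusted p = 0.132 and 0.0814). Across the whole set, 5 members were above and 3 below the floxed libraries without overlap in TPM in CBPWT, beside 8.43% and 12.9% of all genes. The counts were 15 above and 8 below on the TMM-scaled log2 CPM, beside 16.1% and 14.7% of all genes. All 3 translocon members and 3 of the 4 isomerases were among the 15, and Ern1, Ern2 and Atf6 were among the 8. Herpud1 was below in TPM and overlapped on the TMM scale.

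**Figure D3:**
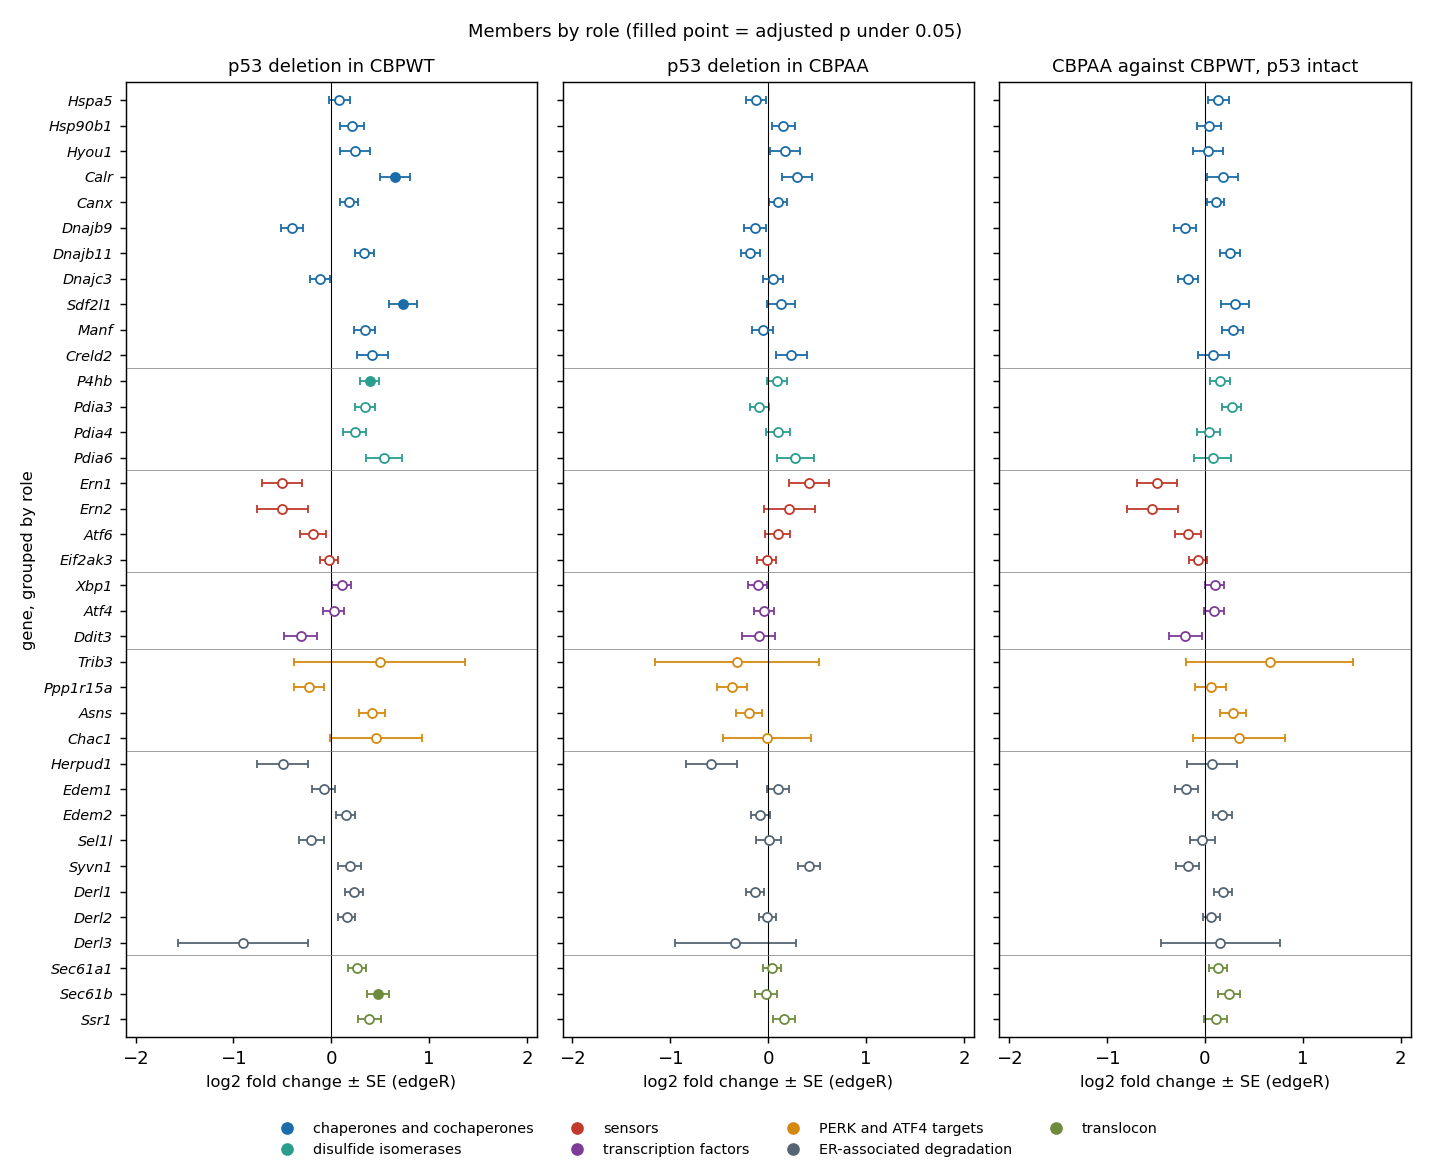
Points give the log2 fold change of each of the 37 members with its SE from edgeR for p53 deletion in CBPWT, p53 deletion in CBPAA and CBPAA against CBPWT with p53 intact, coloured by role. Filled points, with an adjusted p below 0.05, are Calr, Sdf2l1, P4hb and Sec61b in the first panel, and there are none in the other 2 panels.

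Deletion of p53 in CBPAA crypts called no member. The 4 genes called in that comparison were 0.0274% of all genes, and DESeq2 called 0.542% of genes and none of the members. At an unadjusted p below 0.05, 1 member (Syvn1) was higher beside 7.19% of all genes and 2 (Herpud1 and Ppp1r15a) were lower beside 5.41%. Calr was at 492, 416 and 367 TPM in CBPAAp53-floxed and 625, 638 and 445 TPM in CBPAAp53ΔIEC (log2 fold change 0.29, SE 0.16, adjusted p = 0.441), and Sdf2l1 at 61.5, 59.0 and 55.1 TPM and 84.8, 70.9 and 55.9 TPM (adjusted p = 0.712). Replicate 3 of the deleted group was within the floxed range in TPM for both genes. Pdia6 was at 84.5, 89.2 and 87.7 TPM and 128, 135 and 87.0 TPM, again with replicate 3 inside the floxed range. Without overlap in TPM were 5 members above (Hyou1, Canx, P4hb, Syvn1 and Sec61a1) and 1 below (Ppp1r15a), beside 11.7% and 2.67% of all genes. By the TMM-scaled log2 CPM these were Hyou1 and Syvn1 above and Ppp1r15a and Herpud1 below, beside 7.86% and 7.18%.

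Averaged over both CBP genotypes, p53 deletion called no member in edgeR, beside 3.50% of all genes, and 1 member, Herpud1, in DESeq2, beside 5.06%. At an adjusted p below 0.05 without the fold cutoff, Sdf2l1 (log2 fold change 0.43, SE 0.10, adjusted p = 0.0291) and Calr (0.47, SE 0.11, adjusted p = 0.0296) passed, 2 members beside 4.93% of all genes. At an unadjusted p below 0.05, 10 members (27.0%) were higher beside 13.2% of all genes and 3 (8.11%) lower beside 8.73%. The higher ones were the chaperones Calr, Sdf2l1, Creld2 and Canx, the isomerases P4hb and Pdia6, Syvn1 of ERAD and the 3 translocon members. The lower ones were Dnajb9, Herpud1 and Ppp1r15a. On the TMM-scaled log2 CPM, Ppp1r15a was the 1 member whose 6 p53-deleted libraries were all below the 6 floxed ones, beside 0.726% of all genes, and no member was above, beside 1.03%. This comparison shares its libraries with the preceding 2 and adds no separate evidence to them.

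Without CBPWTp53ΔIEC replicate 1 and CBPAAp53ΔIEC replicate 3, 4 members were called over both genotypes. Calr (0.61, SE 0.072, adjusted p = 5.62e-05), Pdia6 (0.58, SE 0.079, adjusted p = 0.000177) and Sdf2l1 (0.54, SE 0.081, adjusted p = 0.000363) were higher, 3 members beside 7.12% of all genes. Herpud1 was lower (-0.89 on the log2 scale, SE 0.068, adjusted p = 1.01e-06), 1 member beside 4.31%. In CBPWT alone, 4 members were higher beside 6.09% of genes, namely Calr (0.80), Sdf2l1 (0.83), Pdia6 (0.73) and Creld2 (0.55), and Herpud1 was lower beside 3.14%. In CBPAA alone none was higher beside 5.01% and Herpud1 was lower (-0.94, adjusted p = 6.05e-05) beside 3.11%. Hspa5, Xbp1 and Atf4 had log2 fold changes of -0.035, -0.026 and -0.015 in this fit (adjusted p = 0.774, 0.83 and 0.91), none of which passed the test. The pair was chosen on marker genes but with the members' values already known. The numbers in the library names also set the pair apart from the p53-deleted libraries that were kept. Each library kept has a higher number than any floxed library. CBPWTp53ΔIEC replicate 3 and CBPAAp53ΔIEC replicate 2, both kept, carry the same number under different CBP genotypes. What the numbers stand for is not given. In this fit p53 deletion and that range of numbers cannot be told apart. Leaving out 1 of them at a time gave a log2 fold change over both genotypes of 0.55 and 0.54 for Calr and of -0.71 and -0.72 for Herpud1, all 4 called.

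Other features of the libraries moved with these genes. A sum of 10 proliferation markers was 146 to 211 TPM in the 6 floxed libraries, 433 to 545 TPM in CBPWTp53ΔIEC replicates 2 and 3 and CBPAAp53ΔIEC replicates 1 and 2, and 244 and 176 TPM in CBPWTp53ΔIEC replicate 1 and CBPAAp53ΔIEC replicate 3. Over both genotypes all 10 of these markers were called higher, with a median log2 fold change of 1.58. Agr2, an isomerase of goblet cells required for mucin folding, followed the same order, at 1329 to 1887 TPM in the floxed libraries, 2323 to 4722 TPM in the 4 libraries and 1321 and 1257 TPM in the pair. Muc2 was at 2144 to 3240 TPM, 3148 to 4361 TPM, and 2133 and 2306 TPM, respectively. Clca1, another goblet marker, went the other way, at 4171 to 13554 TPM, 1858 to 4915 TPM, and 4664 and 7758 TPM in the same order. The sum of 10 goblet markers did not follow the order, at 19325 to 31549 TPM, 17981 to 26945 TPM, and 19447 and 23688 TPM. The ratio of Calr to Herpud1 in TPM is made of 2 of the members themselves and is not a separate feature. It was 2.09 to 2.58 in the floxed libraries, 6.00 to 7.35 in the 4 libraries and 2.64 and 2.45 in the pair. A sum of 11 immediate early and dissociation stress genes was 599 to 995 TPM in the floxed and 629 to 904 TPM in the deleted libraries. The part of proliferation, goblet cells or small-intestinal RNA in the members' values was not tested.

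**Figure D4:**
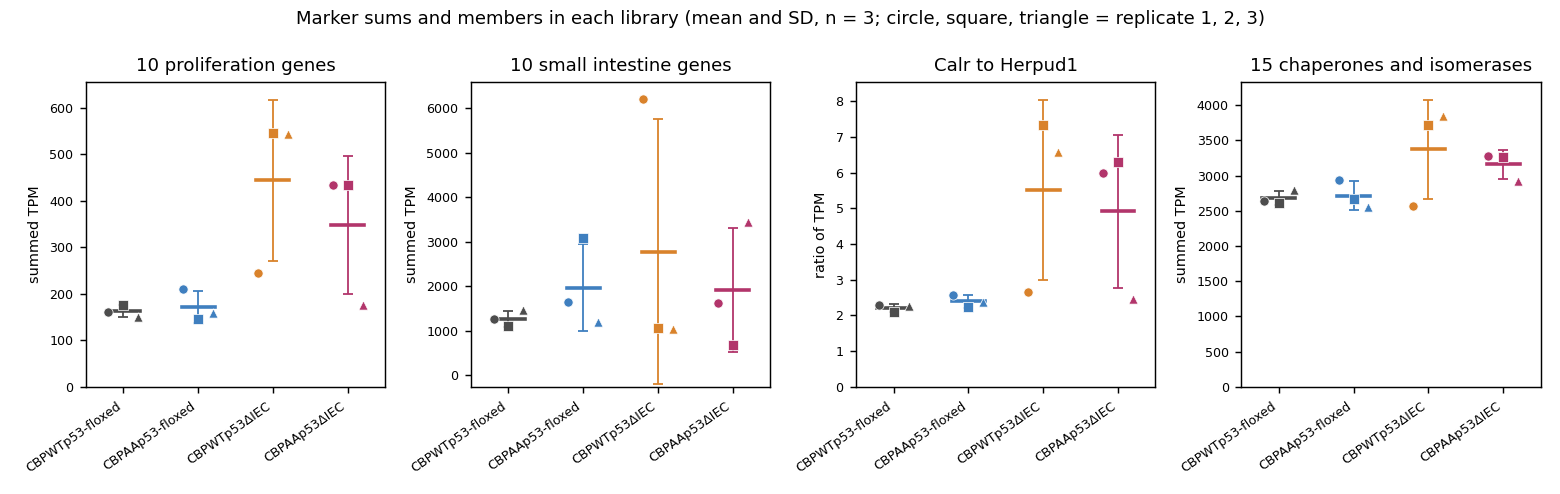
The panels give, for each library, the summed TPM of 10 proliferation genes, the summed TPM of 10 small intestine genes, the ratio of Calr to Herpud1 in TPM and the summed TPM of the 15 chaperones and disulfide isomerases, with 1 point per library, the group mean as a bar and the SD as a whisker. The 4 p53-deleted libraries with proliferation sums of 433 to 545 TPM have Calr to Herpud1 ratios of 6.00 to 7.35, and all 8 other libraries have ratios of 2.09 to 2.64. The ratio is made of members already described above as differing between these libraries, so its split is not separate evidence.

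With p53 intact, CBPAA against CBPWT called no gene of the 14610 tested in edgeR (0%) and therefore no member, and DESeq2 called 0.122% of genes and no member. At an unadjusted p below 0.05, 6 members (16.2%) were higher beside 3.86% of all genes and 1 (2.70%) lower beside 4.18%, and the smallest adjusted p was 0.618. The higher ones were Pdia3, Dnajb11, Manf, Asns, Sec61b and Sdf2l1, with log2 fold changes between 0.24 and 0.31. Pdia3 was at 368, 301 and 307 TPM, Dnajb11 at 87.0, 90.0 and 69.7 TPM and Manf at 37.2, 39.6 and 39.8 TPM in CBPAAp53-floxed. In TPM, Manf and Sdf2l1 were above all CBPWTp53-floxed libraries in each of the 3, and Dnajb9, Dnajc3, Eif2ak3 and Syvn1 below, 2 and 4 members beside 2.55% and 14.4% of all genes. The counts were 7 above and 4 below on the TMM-scaled log2 CPM, beside 9.75% and 9.62%, and of the 6 named in TPM these held Sdf2l1, Dnajc3 and Syvn1 but not Manf, Dnajb9 or Eif2ak3. Dnajb9 was at 49.4, 43.0 and 47.2 TPM here and at 46.6, 42.0 and 50.7 TPM in CBPAAp53ΔIEC, so that in TPM the CBPWTp53-floxed libraries were the 3 highest of all 12. On the TMM scale CBPAAp53-floxed replicate 3 (-0.043) lay above CBPWTp53-floxed replicate 3 (-0.095). The lower member was Ern1 (log2 fold change -0.49, SE 0.20, adjusted p = 0.618), followed by Ern2 (-0.54, SE 0.26, adjusted p = 0.618), and both overlapped CBPWTp53-floxed in TPM, whereas on the TMM scale Ern2 did not.

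With p53 deleted, CBPAA against CBPWT called no member, beside 0.00684% of all genes in edgeR and 0.00369% in DESeq2. No member was higher at an unadjusted p below 0.05 beside 1.81% of all genes, and 3 were lower beside 1.76%. These were Dnajb11 (log2 fold change -0.26, SE 0.10), Asns (-0.32, SE 0.13) and Sec61b (-0.26, SE 0.11), each with an adjusted p of 0.985. Dnajb11 was at 81.4, 86.4 and 70.6 TPM in CBPAAp53ΔIEC, and Pdia3, which was not among them, at 345, 354 and 306 TPM. In TPM the 2 groups overlapped in Dnajb11 and Sec61b and did not in Asns, and on the TMM-scaled log2 CPM none of the 3 overlapped, where 6 members were below beside 4.50% of all genes and 1, Ern1, above beside 4.76%. Averaged over both p53 states, the CBP genotype called no member beside 0.00684% of all genes in edgeR and 0.0184% in DESeq2, and at an unadjusted p below 0.05 it gave no member higher or lower beside 1.42% and 1.15%. The smallest unadjusted p was 0.238, for Edem1. Canx, in the order CBPWTp53-floxed, CBPAAp53-floxed, CBPWTp53ΔIEC and CBPAAp53ΔIEC, was at 151, 167 and 169 TPM, 176, 151 and 155 TPM, 151, 189.003 and 201 TPM and 199, 188.3 and 180.2 TPM. Derl3, in the same order, was at 0.916, 0.46 and 1.65 TPM, 0.303, 0.802 and 1.94 TPM, 0.398, 0.754 and 0.392 TPM and 0.652, 0.966 and 1.06 TPM. Dnajc3 was at 62.7, 44.2 and 52.7 TPM in CBPAAp53-floxed and 60.01, 59.3 and 61.4 TPM in CBPAAp53ΔIEC, and Manf was at 45.6, 40.1 and 38.2 TPM in CBPAAp53ΔIEC. In all 4 genes the 6 CBPAA libraries overlapped the 6 CBPWT ones on both scales.

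Whether p53 deletion acted differently on the CBP backgrounds was tested by the interaction. No member was called, beside 0.00684% of all genes in edgeR and 0.207% in DESeq2, and the smallest adjusted p was 0.482. At an unadjusted p below 0.05, 1 member (2.70%) was higher beside 5.00% of all genes and 7 (18.9%) lower beside 5.28%. Lower means that the log2 fold change on p53 deletion was less positive or more negative in CBPAA than in CBPWT. The sign can differ, as for Dnajb11, at 0.34 in CBPWT and -0.18 in CBPAA. The lower ones were the chaperones Dnajb11 (-0.52, SE 0.14), Sdf2l1 (-0.60) and Manf (-0.39), with Pdia3 (-0.43), Asns (-0.61), Sec61b (-0.50) and Derl1 (-0.36). Apart from Derl1, these were the members higher in CBPAA against CBPWT with p53 intact. That difference enters the interaction with a minus sign from the same libraries, so the counts are not separate evidence. The higher one was Ern1 (0.92, SE 0.29). The calls of Calr and Sdf2l1 in CBPWT and not in CBPAA were therefore not shown to differ, with interactions of -0.36 (SE 0.22, adjusted p = 0.558) and -0.60 (SE 0.20, adjusted p = 0.482).

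The 9 members with an ER stress response element in the promoter window did not form a uniform group. On p53 deletion over both genotypes their log2 fold changes ran from -0.62 (Derl3, few reads) to 0.47 (Calr), with 6 of 9 above 0 and a median of 0.18. The 22 members whose window lacked it, among them Herpud1 and Dnajb11 with element II, ran from -0.54 (Herpud1) to 0.43 (Sdf2l1). Of these 22, 14 were above 0 and the median was 0.053. In CBPWT alone, 7 of the 9 and 14 of the 22 were above 0, with medians of 0.19 and 0.15. In CBPAA alone, 7 of the 9 and 7 of the 22 were above 0, with medians of 0.16 and -0.033. The difference between the 2 sets of members was not tested. Hspa5 and Calr both carried the element printed above and had log2 fold changes of -0.021 and 0.47, while Sdf2l1, next to Calr in size, carried none of the 5 motifs.

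Other genes of the same pathways were taken from 5 lists, and none of them was called in the CBP comparisons or the interaction. Of 28 further translocon, signal peptidase and oligosaccharyltransferase genes tested, 2 rose on p53 deletion in CBPWT and none fell, beside 3.15% of all genes called in either direction, namely Rpn1, a ribophorin of the oligosaccharyltransferase (log2 fold change 0.65, SE 0.14, adjusted p = 0.0332), and Ssr2, a partner of Ssr1 (0.52, SE 0.11, adjusted p = 0.034). Of 29 further ATF4 targets tested, 2 rose in CBPWT and none fell, beside 3.15% of all genes called in either direction. Over both genotypes 2 rose and 1 fell, beside 3.50% of all genes called in either direction. The 2 were Phgdh (1.38, SE 0.22, adjusted p = 0.0108 over both) and Psat1 (0.94, SE 0.16, adjusted p = 0.0117), enzymes of serine synthesis. The gene that fell was Gdf15 (-1.36, SE 0.22, adjusted p = 0.011), a secreted stress factor that is also a known p53 target. None of the 28 further ER folding genes, 22 ERAD genes and 18 stress factors and eIF2alpha regulators tested was called in any of the 3 p53 comparisons. Without the pair, over both genotypes, the folding genes Agr2, Mogs and Fkbp11 rose (0.98, 0.64 and 0.59), as did Rpn1 (0.59) and Rpn2 (0.58), while 4 ATF4 targets rose and 3 fell, no ERAD gene was called and 1 stress factor fell. In that fit 7.12% of all genes rose and 4.31% fell, and the 2 of 28 translocon genes were near that share.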

How the data were processed

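Colonic crypt RNA was oligo(dT)-selected and made into TruSeq libraries. Per the labels, the authors used fastp 0.20.0, FastQC 0.11.9, HISAT2 2.1.0, SAMtools 1.9 and featureCounts of Subread 2.0.1 on GRCm38. The annotation release and the strand setting of the counting are not given in the sources used here, so reads of the 12 members that share exon bases with another gene could be split, 11 of them with a gene on the opposite strand. The deposited table holds raw counts per gene and TPM, scaled by the authors to the same total in each library. Its fold changes, raw and adjusted p-values for 5 comparisons were not used.

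Counts were tested with edgeR 4.0.16 (R 4.3.3) in 1 fit over the 12 libraries with 4 group means, filterByExpr with a minimum count of 10, TMM scaling, robust quasi-likelihood and Benjamini-Hochberg adjustment. To be called, a gene needed both an adjusted p below 0.05 and an absolute log2 difference over 0.5. The script was tested on simulated data. DESeq2 1.42.0 and the other alternatives are given in the closing section. Each library is 1 mouse, and intervals cover the spread between mice. Members and gene lists were chosen with earlier results of these data known. All 37 members are accounted for. Values in every library are given for called members, for up to 3 higher and 3 lower members of smallest p in each comparison, for the highest member of each role and for BiP, the sensors and the transcription factors. Values of Pdia6, P4hb, Creld2 and Hsp90b1 were added after they had been seen. Of 236 other listed genes, 226 were matched by symbol and 10 by an older symbol. Promoters are from RefSeq and coordinates from GENCODE vM21, both on GRCm38.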

Additional observations from a re-analysis of the deposited data

How the results depend on the processing

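Over the 19 or 20 alternatives of each comparison, no member was called for CBPAA against CBPWT with p53 intact or deleted, for the CBP genotype over both p53 states or for the interaction. For p53 deletion in CBPWT, 2 members were called with DESeq2 size factors in edgeR, by DESeq2, without the filter and with the compared groups only, 4 without the fold cutoff, 0 with a replicate block, and between 0 and 5 when 1 library was left out. For p53 deletion in CBPAA the count was 0, and 0 to 1 when 1 library was left out. Over both genotypes it was 0 beside 3.50% of all genes, 1 by DESeq2 beside 5.06% and 2 without the fold cutoff beside 4.93%. It was 0 to 3 when 1 library was left out. Shares of all genes without 1 library are not given for CBPAA or both genotypes, so those member counts cannot be read alone. An alternative added after seeing the data left out the pair with the most small-intestinal RNA among the p53-deleted libraries. It gave 5, 1 and 4 members called for CBPWT, CBPAA and both. Another left out the 4 libraries with the most alpha-defensin RNA. CBPAAp53ΔIEC then kept only 1 library, replicate 2, so for this fit effect sizes alone are given. The log2 fold change of Ppp1r15a was -0.72 in CBPAA and -0.52 over both genotypes, and that of Sdf2l1 was 0.49 over both. Over all genes, calls for p53 deletion in CBPWT numbered 460 in edgeR, 863 in DESeq2, 723 with the compared groups only, 32 with the block and 1370 without the pair. For p53 deletion in CBPAA they numbered 4, 73 by DESeq2 and 1205 without the pair, and with p53 intact the CBP comparison gave 0 and 33. Of the 259 fold changes of the 37 members in 7 comparisons, 2 changed sign in DESeq2, 29 without the pair and 39 without the 4 libraries, none of them with an unadjusted p below 0.05 with all libraries. The median over members changed sign between fits for p53 deletion in CBPAA (-0.026 to 0.049) and for the CBP genotype (-0.024 to 0.014). Replicate numbers did not pair the libraries, since deviations of same-numbered libraries correlated between -0.53 and 0.55 over 18 pairs and 3 of 12 libraries matched best with their own number. Trib3, Chac1 and Derl3 had few reads, with SEs of 0.61, 0.33 and 0.45 for p53 deletion over both genotypes. How large a change could be detected in them was not tested.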

Other observations

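The heat shock genes of the cytosol and mitochondria, a response separate from that of the ER, were read beside the members. Of 13 genes listed, 12 were tested, and over both CBP genotypes p53 deletion called none in edgeR, with 6 higher and 1 lower at an unadjusted p below 0.05, beside 13.2% and 8.73% of all genes. Hspd1, the mitochondrial chaperonin, had a log2 fold change of 0.29 (SE 0.078, adjusted p = 0.0489), under the fold cutoff. Hspa8, the constitutive cytosolic HSP70, was lower in point estimate (-0.29, SE 0.09, adjusted p = 0.0785). Without CBPWTp53ΔIEC replicate 1 and CBPAAp53ΔIEC replicate 3, 3 rose and none fell past the cutoff, beside 7.12% and 4.31% of all genes, namely the inducible HSP70 genes Hspa1a (1.77, adjusted p = 0.000105) and Hspa1b (1.65, adjusted p = 2.92e-05) and Hsph1 (0.72, adjusted p = 0.000123). Hspa1a and Hspa1b are near-identical copies that can share reads, so the split between them is uncertain. The mean level of Hspa1b was 5.35 and 4.41 TPM in CBPWTp53-floxed and CBPAAp53-floxed and 9.65 and 17.1 TPM in CBPWTp53ΔIEC and CBPAAp53ΔIEC.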
